A study of Mus musculus with 2 samples.

Results

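Cycling fibro-adipogenic progenitors (FAPs), the mesenchymal stromal cells of skeletal muscle, were examined in injured mouse quadriceps at day 3. They were chosen by counts of unique molecular identifiers (UMIs, 1 for each captured RNA molecule). Of the 6640 barcodes with the most UMIs in the day 3 library, 6431 had at least 1000 UMIs and 200 detected genes, and 4627 of these took no more than 7.5% of UMIs from mitochondrial genes. A FAP had at least 1 UMI of *Pdgfra*, at least 0.3% of its UMIs from *Col1a1*, *Col1a2*, *Col3a1* and *Dcn*, less than 0.5% from the macrophage gene *Lyz2*, and fewer than 2 UMIs of the myogenic regulators *Pax7*, *Myf5*, *Myod1* and *Myog*. These limits left 699 FAPs, and 268 of them carried at least 2 UMIs of *Top2a* and *Mki67* together and were called cycling. They were 268 of 11362 cells that passed the quality limits in the libraries analysed here, 6735 at day 1 and 4627 at day 3.

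The study followed the response of muscle to chemical injury in wild-type male C57BL/6J mice of 14 weeks. Both groups used here received 100 µL of 1.2% (w/v) BaCl2, a salt that kills myofibres, in the right quadriceps, and the muscle was taken at day 1 or day 3. Tendons were removed, the tissue was digested, and cells were sorted on light scatter alone to leave out dead cells, doublets and debris, so no surface marker of FAPs was used. Cells of 5 mice were pooled into 1 library per day, so that mice cannot be told apart, no uninjured muscle was analysed here, and values carry counting error only.

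FAPs lie between myofibres, are marked by *Pdgfra*, make much of the interstitial collagen, and can become fibroblasts or adipocytes. After injury they enter the cell cycle, expand for a few days, secrete factors that act on muscle stem cells, and are later cleared. During the cycle, genes for DNA replication are transcribed from late G1 into S phase under E2F factors, and genes for the mitotic spindle and chromosome segregation follow in G2 and M phase under the DREAM and MuvB complexes, B-MYB and FOXM1.

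The cells carried the RNA of stromal cells. *Pdgfra*, the receptor that marks FAPs, had from 1 to 32 UMIs in a cycling FAP, with a median of 7. Collagen and decorin RNA took 0.328% of UMIs in the cell with the lowest share, 1.92% in the median cell and 5.75% in the highest. *Top2a*, which encodes the topoisomerase that untangles sister chromatids, had a median of 4 UMIs (range 0 to 55), and *Mki67*, a coat protein of mitotic chromosomes, had a median of 4 (range 0 to 44). Both transcripts were found in 203 cells, *Top2a* alone in 23 and *Mki67* alone in 42. These genes chose the cells, and their values are a description.

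Depth and RNA of other cells moved with the split. Cycling FAPs held 4822 UMIs in the shallowest cell, a median of 33891 and 108035 in the deepest, whereas the 338 FAPs with 0 UMIs of *Top2a* and *Mki67*, called non-cycling here, had a median of 20758.5. *Lyz2* reached 0.1% of UMIs in 86 of 268 cycling FAPs (32.1%) and 28 of 338 non-cycling FAPs (8.28%). The 10 macrophage markers other than *Lyz2* summed to 1491 counts per 1000000 UMIs (CPM) in cycling FAPs, with single cells between 0 and 9496 and a median cell at 97.8, against 570 in non-cycling FAPs and 12311 in cycling macrophages. In the cycling FAPs with *Lyz2* under 0.1% the same markers summed to 242 CPM, still above the non-cycling FAPs of low *Lyz2* (log2 ratio 0.66, 0.54 to 0.77), though 0 of the 4 markers with enough UMIs there were 2-fold higher. Of those 10 markers, 9 were at least 2-fold higher in cycling than in non-cycling FAPs, beside 4.94% of all genes compared. The defining genes *Ptprc* (45.7 against 16.6 CPM), *Csf1r* (55.1 against 19.1 CPM) and *Adgre1* (45.2 against 19.2 CPM) were among the 9. With no minimum of UMIs, 3 of the 9 were still at least 2-fold higher in the cells with *Lyz2* under 0.1%. In the band of depth used below, 4 of the 9 were still at least 2-fold higher. If all UMIs of *C1qa*, *C1qb*, *Lyz2* and *S100a9* came from free RNA of the droplet solution, that RNA would make up 20.2% of UMIs in cycling and 7.89% in non-cycling FAPs. Of the 18 cycling FAPs among the highest doublet scores of the library, 17 had *Lyz2* at or above 0.1%. The part of depth, doublets and macrophage RNA in the differences below was not tested. Values within a band of depth and without the cells of higher *Lyz2* are given beside the lists whose calls they change, apart from tendon and glial markers.

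Markers of other cells were low in both groups. Summed endothelial markers stood at 14.9 CPM in cycling and 8.88 CPM in non-cycling FAPs, mural markers at 37.5 and 18.6 CPM, neutrophil markers at 31.3 and 44.4 CPM, glial markers at 11.8 and 23.8 CPM, skeletal muscle markers at 29.4 and 22.5 CPM and lymphoid markers at 2.84 and 1.48 CPM. *Sox10* (glia), *Retnlg* (neutrophils), *Ms4a1* (B cells) and *Trbc2* (T cells) had 0 UMIs in both groups. Tendon markers stood at 52.4 CPM in cycling against 191 CPM in non-cycling FAPs, mostly through *Comp*, a cartilage and tendon matrix protein (20.8 against 122 CPM). The median cell had 0 CPM of tendon markers in both groups, and the highest cell 1734 CPM in cycling and 21791 CPM in non-cycling FAPs.

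Cycling FAPs made up 38.3% of day 3 FAPs (exact 95% interval 34.7 to 42.1) and 5.79% of all day 3 cells (5.14 to 6.50). The interval covers counting error only, as do all those below. By the same limits, apart from the choice of barcodes with the most UMIs, 17 of 380 day 1 FAPs were cycling, or 4.47% (2.63 to 7.07). Day 1 FAPs lay nearer the collagen and decorin limit of 0.3%, at a median share of 0.688% against 2.26% in all day 3 FAPs. The part of that limit in the day 1 values was not tested. Because a deeper cell more readily reaches 2 UMIs, every cell was also thinned at random to 3000 UMIs. After thinning, 80 of 693 day 3 FAPs still held 2 UMIs of *Top2a* and *Mki67* (11.5%, 9.26 to 14.2), compared with 1 of 379 at day 1 (0.264%). At day 3 the thinned share was 6.12% in macrophages and 42.1% in myogenic cells, and the unthinned shares were 17.3% (405 of 2344) and 90.4% (179 of 198). FAPs thus stood between macrophages and myogenic cells on both scales. Day cannot be told apart from library, since there was 1 library for each.

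The limit of 2 UMIs cut a continuous range. FAPs with exactly 1 UMI of *Top2a* and *Mki67*, just outside the limit, numbered 93, and those with exactly 2, just inside it, numbered 41. Replication genes summed to 975 CPM just outside and 1338 CPM just inside, and mitosis genes to 919 and 1456 CPM. From 0 UMIs to at least 20 UMIs, mitosis genes went from 535 to 7535 CPM and were higher at each step. Replication genes peaked earlier, at 3260 CPM in the cells with 10 to 19 UMIs, and were lower, at 2596 CPM, in the cells with 20 or more. Median depth was higher along the same steps apart from the cells with 3 to 9 UMIs, from 20758.5 to 40974 UMIs per cell.

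**Figure D1:**
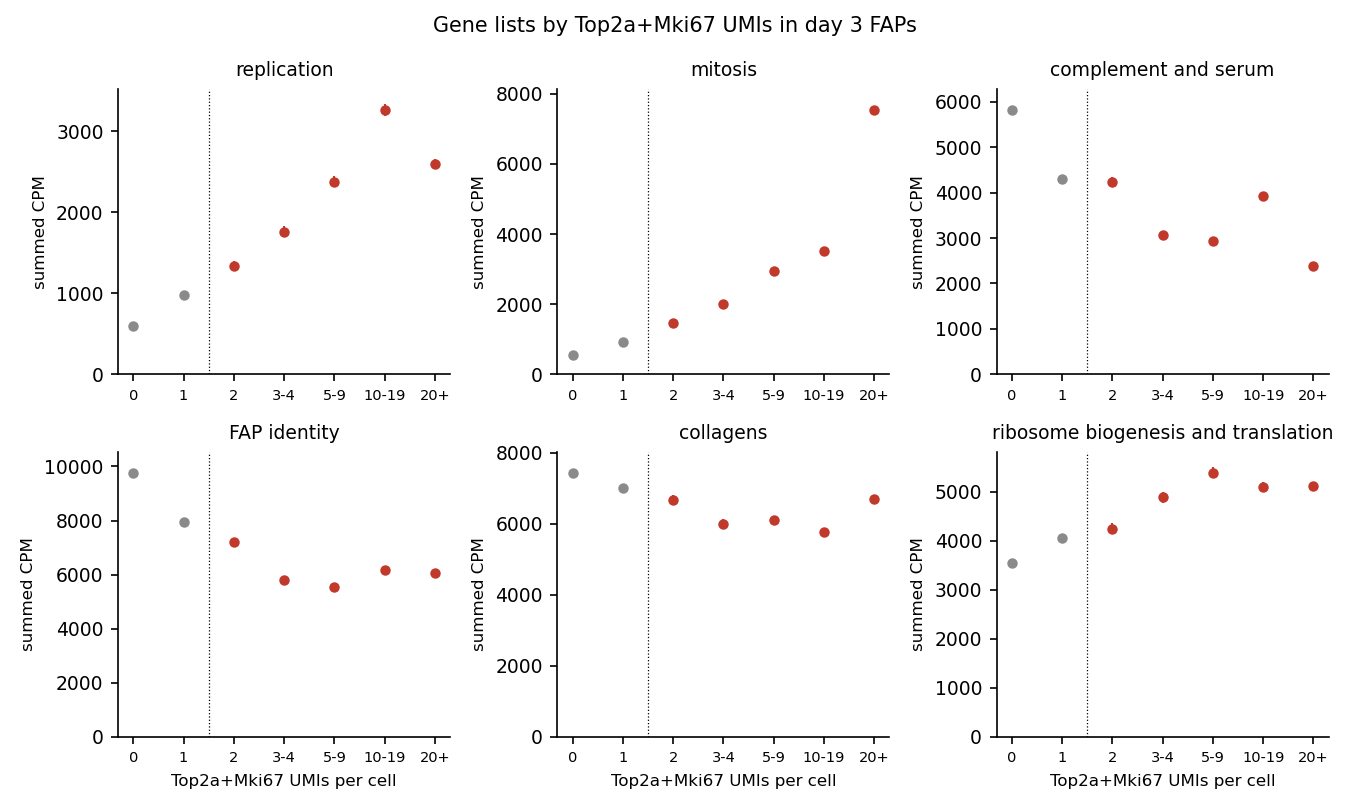
Summed CPM of gene lists against the number of *Top2a* and *Mki67* UMIs in a day 3 FAP, in 7 steps from 0 to at least 20, for 6 lists; each point is the sum over the cells of a step, bars are 95% counting intervals, and a dotted line marks the limit between other FAPs (grey) and cycling FAPs (red). Mitosis genes were higher at each step, from 535 to 7535 CPM, whereas complement and serum genes stood at 5816 CPM with 0 UMIs and at 2394 CPM with at least 20, with 3923 CPM in the step before.

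Cycling FAPs were next compared with non-cycling FAPs of the same library. UMIs were summed over the cells of each group, and a gene counted as higher or lower when the CPM differed at least 2-fold, among 7868 genes with at least 200 UMIs in both groups together. With 1 library there was no test, so that the counts describe these cells. Of those genes, 389 (4.94%) were higher and 139 (1.77%) were lower in cycling FAPs, and the median log2 ratio over all of them was 0.05. Of the 389, 95 were in the cell-cycle lists used here, counting with them *Top2a* and *Mki67*, which chose the cells. Among the cells with *Lyz2* under 0.1%, 272 of 6813 genes above the minimum (3.99%) were higher and 118 (1.73%) lower. Of the 389, 228 were among those 272, and of the 139, 98 were among those 118. Without the UMI minimum in those cells, 297 of the 389 were at least 2-fold higher and 108 of the 139 at least 2-fold lower. Among cells of 20000 to 40000 UMIs (140 cycling and 167 non-cycling), 181 of 5498 genes above the minimum were higher and 44 lower. Without the minimum in those cells, 313 of the 389 were 2-fold higher and all 389 had a ratio above 1. Likewise 56 of the 139 were 2-fold lower and all 139 had a ratio below 1.

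The mitosis list, 48 genes of the spindle, kinetochore and mitotic kinases without *Top2a* and *Mki67*, stood highest. Its summed level was 338 CPM in the lowest cycling FAP, 3002 CPM in the median cell and 18818 CPM in the highest, against a median of 452 CPM in non-cycling FAPs. The groups overlapped, since the highest non-cycling cell reached 2912 CPM. Of 44 genes above the UMI minimum, 43 were at least 2-fold higher and 0 lower, beside 4.94% and 1.77% of all genes, and the 4 others were below the minimum. The median log2 ratio was 4.41, beside 0.05 over all genes, and that of the summed list was 2.98 (2.93 to 3.03). These genes are transcribed together with *Top2a* and *Mki67*, which chose the cells, so nothing is read from that count.

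*Ccnb1*, cyclin B1, which drives entry into mitosis, stood at 69.6 CPM in cycling FAPs and 1.48 CPM in non-cycling FAPs, a log2 ratio of 5.49. Single cycling cells ranged from 0 to 713 CPM with a median of 17.0 CPM, and the highest non-cycling cell was at 108 CPM. *Hmmr*, a spindle assembly factor, was found in 185 of 268 cycling and 6 of 338 non-cycling FAPs (107 against 0.942 CPM). *Cenpf*, a kinetochore protein, was at 124 against 2.96 CPM, *Birc5* (survivin, of the chromosomal passenger complex) at 204 against 9.42 CPM, and *Cdk1*, the mitotic kinase, at a log2 ratio of 3.91. The tubulin gene *Tubb4b*, which is also used outside mitosis, differed least among those named, at 252 against 85.7 CPM.

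The largest ratios belonged to the same machinery. *Pbk*, a mitotic kinase, had 406 UMIs in 148 cycling FAPs and 0 UMIs in non-cycling FAPs, which puts it at least 101.9-fold higher against a floor of 3 counts over the group. It was followed by *Prr11* (log2 ratio 6.98), *Hmmr*, *Dlgap5* (6.58), *Pimreg* (6.42) and the spindle pole gene *Aspm* (6.40). *Nusap1* (6.24), the spindle motor *Kif11* (6.20), the condensin subunit *Ncapg* (5.98), the kinase *Plk1* (5.97), the chromokinesin *Kif4* (5.86) and cyclin A2, *Ccna2* (5.72), came next. The linker histone *Hist1h1b* (5.95) and the core histone *Hist1h2ap* (5.48) completed the 15 highest together with *Ccnb1*. Histone genes are near-identical copies of each other and most of their transcripts lack a poly(A) tail, so the values of single histone genes are uncertain in this 3′ assay.

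Replication genes followed with smaller ratios. Their summed level was 322 CPM in the lowest cycling FAP, 1971 CPM in the median cell and 6922 CPM in the highest, against a median of 456 CPM and a highest cell of 5273 CPM in non-cycling FAPs. Of 34 genes of the list of 41 that passed the minimum, 32 were at least 2-fold higher and 0 lower, with a median log2 ratio of 2.13 and a summed one of 2.02 (1.97 to 2.06). Nothing is read from this count either. *Pclaf*, a PCNA-binding factor, was highest of those described here, at 282 CPM in cycling FAPs (log2 ratio 4.13). *Ccne2*, cyclin E2, had a log2 ratio of 3.15 and *Rrm2*, a subunit of ribonucleotide reductase, 3.07. Subunits of the MCM helicase, which unwinds DNA at origins, were at 63.3 against 9.82 CPM for *Mcm5*, 55.2 against 11.7 CPM for *Mcm3* and 38.6 against 9.29 CPM for *Mcm2*. *Pcna*, the sliding clamp of DNA polymerase, was at 166 against 53.8 CPM.

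Promoters of both lists were inspected because mitotic and replication genes are known for different sequence elements. Promoters from RefSeq (build GRCm38.p6) covering 250 bases before to 50 bases after a start were searched on both strands for CCAAT, the box bound by NF-Y, for TTTGAA, the core of the cell cycle homology region (CHR), and for GGCGGGA, an E2F motif. Of 48 mitosis genes 41 were matched, with 46 promoters, and of 41 replication genes 29 were matched, with 34 promoters. TTTGAA stood in 32 mitosis promoters (69.6%) and 5 replication promoters (14.7%), beside 17.9% of all 32851 promoters and 11.5% of those of the genes above the UMI minimum. CCAAT was found in 37 mitosis promoters (80.4%) and 21 replication promoters (61.8%), beside 37.4% of all promoters. GGCGGGA was found in 16 mitosis promoters (34.8%) and 13 replication promoters (38.2%), beside 11.3% of all promoters and 22.1% of those of the genes above the minimum. TTTGAA and CCAAT stood together in 27 mitosis promoters (58.7%), 4 replication promoters (11.8%) and 6.95% of all promoters. Such matches describe letters in a window and are not binding sites.

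The 150 bases before the start, 5′ to 3′ on the strand of the gene, are shown for 3 mitosis genes and 2 replication genes with high ratios whose windows held these letters, and were chosen for that. Capitals mark CCAAT, which reads ATTGG on the other strand. They also mark TTTGAA, which reads TTCAAA when reversed. The E2F motif GGCGGGA, or TCCCGCC on the other strand, is in capitals too, and in *Prim1* it overlaps the CCAAT box. *Kif11* (chr19:37376232-37376381, plus strand), *Ube2c*, a ubiquitin-conjugating enzyme of the anaphase-promoting complex (chr2:164769779-164769928, plus strand), and *Ckap2l*, a spindle protein (chr2:129297213-129297362, minus strand), are mitosis genes. *Prim1*, the primase (chr10:128015065-128015214, plus strand), and *Mcm5* (chr8:75109359-75109508, plus strand) are replication genes.
Kif11: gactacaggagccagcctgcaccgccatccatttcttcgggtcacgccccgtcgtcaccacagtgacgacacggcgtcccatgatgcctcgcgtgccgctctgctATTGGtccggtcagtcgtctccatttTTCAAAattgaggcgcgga
Ube2c: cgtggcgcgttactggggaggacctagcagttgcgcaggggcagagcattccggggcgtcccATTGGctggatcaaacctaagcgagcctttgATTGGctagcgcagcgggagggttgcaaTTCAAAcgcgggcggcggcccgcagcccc
Ckap2l: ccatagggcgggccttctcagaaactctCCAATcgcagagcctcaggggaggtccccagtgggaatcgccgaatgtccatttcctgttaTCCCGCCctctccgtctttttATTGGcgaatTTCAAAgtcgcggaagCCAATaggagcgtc
Prim1: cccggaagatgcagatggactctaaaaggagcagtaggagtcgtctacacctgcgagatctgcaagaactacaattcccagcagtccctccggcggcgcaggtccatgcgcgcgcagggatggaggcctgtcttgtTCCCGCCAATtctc
Mcm5: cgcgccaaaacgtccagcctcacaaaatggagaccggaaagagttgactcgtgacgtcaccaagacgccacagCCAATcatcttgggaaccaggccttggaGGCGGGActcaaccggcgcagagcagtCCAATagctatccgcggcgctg
In the 3 mitosis windows a TTCAAA run lies between 19 and 30 bases before the start, with an ATTGG run upstream of it. The *Prim1* and *Mcm5* windows hold no match to TTTGAA on either strand.

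Chromatin and nucleotide genes were the other cell-cycle groups examined. Of 17 chromatin genes (median log2 ratio 1.30), 13 were at least 2-fold higher, with *Stmn1*, a tubulin-binding protein of dividing cells, at 295 against 41.2 CPM, the nuclear lamina gene *Lmnb1* at 102 against 18.3 CPM (log2 ratio 2.48) and the chromatin protein *Hmgb3* at a log2 ratio of 2.14. Among 17 nucleotide and folate genes (median 0.68), 5 were at least 2-fold higher, among them *Tk1* (3.45), which salvages thymidine, and the 1-carbon enzymes *Mthfd2* (1.26), *Shmt2* (1.23) and *Mthfd1l* (1.05). None of either group was 2-fold lower. Beside these counts, 4.94% of all genes were higher and 1.77% lower. Such genes go with *Top2a* and *Mki67*, which chose the cells, so nothing is read from the counts.

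Growth-related genes differed less. Of 17 genes of ribosome biogenesis and translation, 0 passed 2-fold but all had a higher value in cycling FAPs, led by *Nhp2* (log2 ratio 0.97), *Ncl* (0.66) and *Npm1* (0.64), which serve ribosome assembly. Their sum was 5013 CPM in cycling and 3537 CPM in non-cycling FAPs, a log2 ratio of 0.50 (median of the genes 0.51) that stood at 0.38 within the band of depth. Of 18 genes of oxidative phosphorylation, 17 had a higher value, with a summed log2 ratio of 0.25 and a median of 0.24. Over all genes compared the quartiles of the log2 ratio were -0.18 and 0.30, so that this median lay between them. The glycolysis genes summed to a log2 ratio of -0.01. Of 10 regulators of the G1 phase, *Skp2* (1.32), *Cdk2* (1.15) and *E2f1* (1.01) were at least 2-fold higher, while cyclin D1, *Ccnd1*, had a log2 ratio of 0.66, *Ccnd2* -0.41 and *Myc* -0.36. Among 13 genes of cell-cycle arrest, the inhibitors of CDK4 and CDK6 *Cdkn2c* (1.81) and *Cdkn2d* (1.13) were 2-fold higher and the CDK inhibitor *Cdkn1c* was 2-fold lower (19.5 against 59.6 CPM). *Cdkn1a* (0.25), *Cdkn1b* (-0.39) and *Gas1* (-0.66) did not pass 2-fold. Beside the G1 and arrest counts, 4.94% of all genes were 2-fold higher and 1.77% lower.

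**Figure D2:**
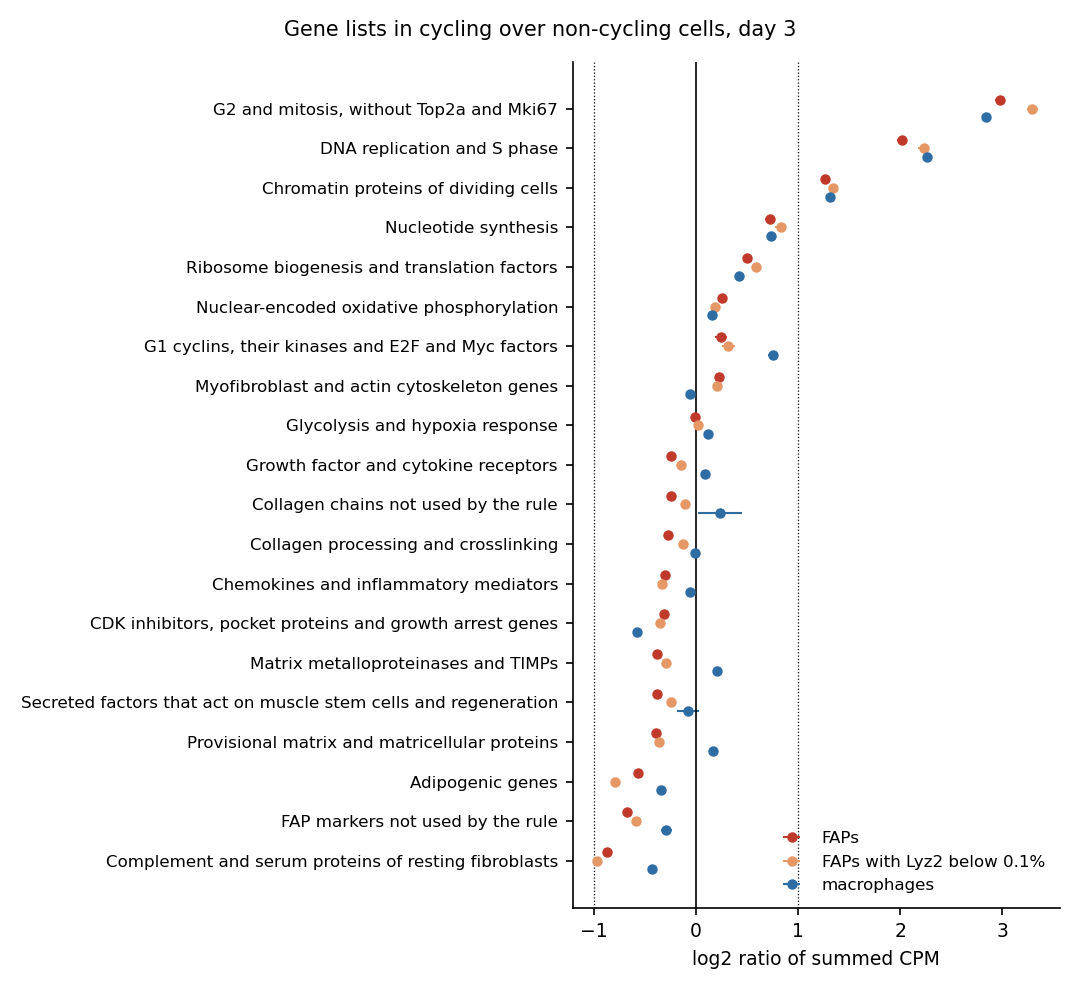
Log2 ratio of summed CPM, cycling over non-cycling cells of day 3, for the gene lists other than markers of other cells, in FAPs (red), FAPs with *Lyz2* under 0.1% (orange) and macrophages (blue), with 95% counting intervals and dotted lines at 2-fold. In FAPs the mitosis, replication and chromatin sums lay past 2-fold, at 2.98, 2.02 and 1.27, and of the lists plotted the complement sum was lowest, at -0.88.

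Complement and serum protein genes formed the group with the most members lower in cycling FAPs. Of 13 genes above the minimum, 11 were at least 2-fold lower and 0 higher, beside 1.77% and 4.94% of all genes, and the sum was 3171 CPM in cycling against 5816 CPM in non-cycling FAPs (log2 ratio -0.88, -0.90 to -0.85). Over its 13 genes the median was -1.18, beside 0.05 over all genes. Members of this list and of the lists below were chosen with earlier results of these data known. Nothing is read from their counts. Cell by cell the list ranged from 450 to 18117 CPM with a median of 2793 CPM in cycling FAPs and from 506 to 28876 CPM with a median of 5053 CPM in non-cycling FAPs, so that the groups overlapped widely. *C3*, the central complement component, was at 173 against 543 CPM, and *C4b* at 17.4 against 67.3 CPM, though *C4b* has a near-identical copy and its value is uncertain. The C1 inhibitor gene *Serping1* had a log2 ratio of -1.18, and the proteases *C1ra* and *C1s1* -1.11 and -1.05. Binding proteins of insulin-like growth factors were lower as well, with *Igfbp5* at -1.66, *Igfbp4* at -1.21 and *Igfbp6* at -1.15, whereas *Igfbp7* was at -0.57.

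The size of this difference varied with the cells compared. Within 20000 to 40000 UMIs only 1 of the 13 genes was still 2-fold lower, and the summed log2 ratio was -0.58. With all cells thinned to 3000 UMIs, 10 were still 2-fold lower and the sum was -0.93. With *Lyz2* under 0.1% 8 genes were still 2-fold lower and the sum was -0.97. *Apoe*, a lipid carrier that macrophages make in large amounts, was the member with a higher value in cycling FAPs (log2 ratio 0.84), and stood at -0.32 in the cells of low *Lyz2*.

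Several genes that mark FAP states also had lower values. Of 19 FAP identity genes above the minimum, 5 were at least 2-fold lower and 0 higher, beside 1.77% and 4.94% of all genes, with a median log2 ratio of -0.59 and a summed one of -0.68, or -0.39 within the band of depth. *Pi16*, a marker of a perivascular and fascial progenitor state, was at 11.2 CPM in cycling and 158 CPM in non-cycling FAPs (log2 ratio -3.81), and was found in 28 of 268 against 72 of 338 cells. *Dpp4*, which marks the same state, was at 6.49 against 24.9 CPM and *Clec3b*, tetranectin, at 73.6 against 293 CPM. *Gsn* (log2 ratio -1.30), gelsolin, and *Lum* (-1.02), lumican, were the other members 2-fold lower, and stood at -0.87 and -0.67 within the band of depth, where the first 3 were still 2-fold lower. *Ly6a* (-0.74) and *Cd34* (-0.66), surface markers used to sort FAPs, did not pass 2-fold, and *Pdgfrb*, a second PDGF receptor, had a higher value (158 against 113 CPM). *Tcf21* had 0 UMIs in these cells.

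At a matched depth of 3000 UMIs the same genes were counted by cell. *Pi16* or *Dpp4* was seen in 9 of 268 cycling FAPs (3.36%, 1.55 to 6.28) and 54 of 332 non-cycling FAPs (16.3%, 12.5 to 20.7), and in 1.49% of cycling macrophages, a cell type that should lack them. *Smoc2* or *Col15a1*, which mark another FAP state, went the other way, in 60.1% of cycling (53.9 to 66.0) and 52.1% of non-cycling FAPs (46.6 to 57.6). Before thinning, the median depth was 33891 UMIs in cycling FAPs and 22876 in cycling macrophages. *Ly6a* was seen in 85.1% of cycling and 93.7% of non-cycling FAPs (macrophages 6.95%), and *Cd34* in 28.0% and 38.3% (macrophages 0 of 403). In the other direction, *Pdgfrb* was seen in 39.6% of cycling and 28.0% of non-cycling FAPs, *Tnc*, the early wound matrix protein tenascin C, in 45.5% and 26.5%, and *Acta2*, smooth muscle actin, in 34.0% and 18.4%, with 0, 0.248% and 1.74% in macrophages. *Postn* was seen in 91.0% and 85.8% of cells and *Adam12*, a protease of activated FAPs, in 37.7% and 31.6%. The intervals of the cycling and non-cycling shares overlapped for *Cd34*, *Smoc2* or *Col15a1*, *Postn* and *Adam12* and not for the other genes of this paragraph, and cells of 1 library are not replicates.

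Several of the 15 lowest ratios were secreted or surface proteins outside those lists. *Angptl7* had 0 UMIs in cycling FAPs and 61.2 CPM in non-cycling FAPs, at least 201.4-fold lower in cycling FAPs against the floor of 3 counts, but its UMIs came from only 7 non-cycling cells. *Apod*, apolipoprotein D, was at 41.7 against 334 CPM (log2 ratio -3.00), *Clu*, clusterin, at 5.78 against 36.2 CPM, and *Lbp*, the lipopolysaccharide-binding protein, at 37.5 against 133 CPM. The ferritin receptor *Scara5* (-1.86), thrombomodulin *Thbd* (-1.80), the neurotrophin receptor *Ntrk2* (-1.76), the complement regulator *Cd55* (-1.73) and the semaphorin *Sema3c* (-1.72) were in this range, as was *G0s2*, a lipase inhibitor (-1.94). All 15 were also at least 2-fold lower within the band of depth.

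The summed collagen and matrix genes stood within 2-fold of each other in cycling and non-cycling FAPs. Of 13 collagen genes, 0 were 2-fold higher and 1, *Col14a1* (log2 ratio -1.05, or -0.98 in the band of depth), was 2-fold lower, and the list summed to 6274 CPM in cycling and 7440 CPM in non-cycling FAPs (log2 ratio -0.25, median of the genes -0.26), or to a log2 ratio of -0.04 within the band of depth. *Col1a1*, *Col3a1* and *Dcn*, which helped to choose all FAPs, had log2 ratios of -0.19, -0.51 and -1.01. The 20 genes of provisional matrix summed to 17494 CPM against 22915 CPM (log2 ratio -0.39, -0.40 to -0.38), with a median over the genes of -0.39. *Tnc* had a higher value (314 against 230 CPM), while *Fn1*, fibronectin (-0.76), *Sparc* (-0.44) and *Postn*, periostin (-0.33), had lower values. *Tnfaip6*, which modifies hyaluronan, was the member 2-fold lower (309 against 684 CPM), at a log2 ratio of -0.89 in the band of depth. *Spp1*, osteopontin, was the member 2-fold higher (1225 against 496 CPM), but its log2 ratio was -0.08 among cells of low *Lyz2* and 0.14 in the band of depth. For both lists the shares over all genes were 4.94% higher and 1.77% lower, and nothing is read from the counts.

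Cross-linking enzymes differed by less than 2-fold between the groups, and a few proteases by more. Of 17 genes of collagen processing 0 passed 2-fold in either direction (summed log2 ratio -0.28). Of 11 proteases and inhibitors, *Timp3* (-1.33) and the gelatinase *Mmp2* (-1.06, 229 against 476 CPM) were 2-fold lower, beside 1.77% of all genes, with a median of -0.58 over the list. In the band of depth *Mmp2* was at -0.77. Contractile and cytoskeletal genes had slightly higher values in cycling FAPs, in 16 of 17 genes, with a summed log2 ratio of 0.23 and none past 2-fold. Their median of 0.31 was close to the upper quartile of all genes compared, 0.30. *Acta2* was at 254 against 149 CPM, *Tagln2* had a log2 ratio of 0.65 and *Actb* 0.47, while *Myl9* was at -0.29.

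Signals to other cells were mostly at lower values. Of 17 genes for factors that act on muscle stem cells, 4 were at least 2-fold lower and 0 higher, beside 1.77% and 4.94% of all genes (median log2 ratio -0.65), namely the growth factor *Fgf2* (log2 ratio -1.60), the Wnt inhibitor *Sfrp1* (-1.32), the activin subunit *Inhba* (-1.11) and *Igf1* (-1.04). In the band of depth *Fgf2* alone was still 2-fold lower, and *Sfrp1*, *Inhba* and *Igf1* were at -0.84, -0.64 and -0.83. In single cells *Igf1* ranged from 0 to 1301 CPM with a median of 104 CPM in cycling FAPs and from 0 to 3905 CPM with a median of 176 CPM in non-cycling FAPs. *Ccn4* (0.49), which FAPs supply to muscle stem cells, and *Wnt5a* (0.27) had higher values. Of 19 receptors 0 passed 2-fold (summed log2 ratio -0.24). Of 19 chemokines and inflammatory mediators (median -0.29), *C3*, *Cxcl12* (-1.01), a chemokine that holds leukocytes and stem cells in their niche, and *Saa3* (-1.06) were 2-fold lower, beside 1.77% of all genes. With *Lyz2* under 0.1% only *C3* was still 2-fold lower, and in the band of depth none of the 3 was, at -0.98, -0.66 and -0.30. A single cell held 68.75% of the *Saa3* UMIs of cycling FAPs. Of 9 adipogenic genes, beside the same 1.77%, *Apod* and *G0s2* were 2-fold lower and the lipid droplet gene *Plin2* was at 0.41.

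Cycling FAPs were not uniform in their cell-cycle RNA. In cells thinned to 3000 UMIs, a cycling FAP held a median of 6 replication UMIs (range 0 to 23) and 9 mitosis UMIs (range 1 to 58), and non-cycling FAPs a median of 1 of each. More replication than mitosis UMIs were found in 82 cells, more mitosis UMIs in 170 and equal numbers in 16. The margin was at most 3 UMIs in 90 of the 268 cells, so that the classes are ranges of a continuum. The cells with more replication UMIs were 30.6% (25.1 to 36.5), compared with 54.6% (220 of 403, 49.6 to 59.5) of cycling macrophages of the same library. The intervals did not overlap, but they cover counting error only and cells of 1 library are not replicates. Both groups were chosen before thinning, at a median depth of 33891 UMIs in FAPs and 22876 in macrophages. The part of that depth was not tested. With all UMIs of each cell the FAP share was 35.8%. The difference was not tested across samples.

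**Figure D3:**
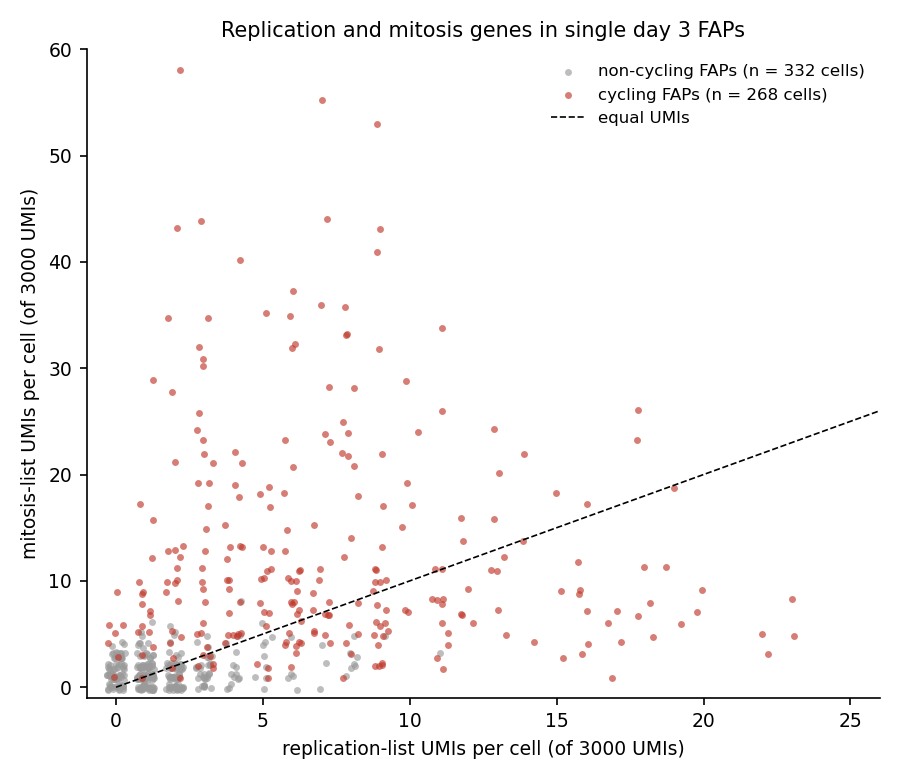
Replication UMIs against mitosis UMIs per cell after thinning to 3000 UMIs, 1 point per FAP of day 3, cycling FAPs in red and non-cycling FAPs in grey, with small random offsets to separate points and a dashed line at equal numbers. Cycling FAPs spread along both axes, up to 23 replication and 58 mitosis UMIs, while non-cycling FAPs stayed at or below 11 replication and 8 mitosis UMIs.

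Cells with more mitosis UMIs were set against cells with more replication UMIs for genes outside those lists. Of 5837 genes, 73 (1.25%) were at least 2-fold higher and 38 (0.651%) lower, and the lists that made the split are among them. *Aspm* (log2 ratio 3.27), the histone variant *H2afx* (1.36), *Cdkn2d* (1.02) and *Cdkn2c* (1.00) were higher in the cells with more mitosis UMIs, and *E2f1* (-1.46) was lower. None of 13 collagen genes and none of 20 provisional matrix genes differed 2-fold between these cells. The macrophage markers *C1qa* (-1.46), *C1qb* (-1.26) and *Cd68* (-1.02) were higher in the cells with more replication UMIs.

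Cycling macrophages of the same library served to show what was shared. Between cycling and non-cycling macrophages 410 of 8257 genes (4.97%) were at least 2-fold higher and 160 (1.94%) lower. Of the 410, 225 were among the 389 of FAPs, that is 54.9% of the macrophage list and 57.8% of the FAP list. Both cell types were split on *Top2a* and *Mki67*, so a shared set of cell-cycle genes follows from the split. Nothing is read from the overlap, and a gene below the UMI minimum in 1 cell type counts as not shared. Summed log2 ratios were 2.84 for mitosis, 2.26 for replication, 1.31 for chromatin and 0.42 for translation genes in macrophages, beside 2.98, 2.02, 1.27 and 0.50 in FAPs. *Rrm2* had a log2 ratio of 3.07 in FAPs and 5.30 in macrophages, cyclin E1, *Ccne1*, 0.87 and 3.47, and citron kinase, *Cit*, which acts in cytokinesis, 2.24 and 4.91. Complement genes had a summed log2 ratio of -0.88 in FAPs and -0.43 in macrophages. Only 6 of the 14 genes of that list passed the minimum in macrophages, 1 of them 2-fold higher and 2 lower. The 2 sums need not rest on the same genes. The difference between the cell types was not tested. Only 8 myogenic cells had 0 UMIs of *Top2a* and *Mki67*, and no comparison was made in them.

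FAPs of day 1 were set beside cycling FAPs of day 3, with the reservation that day, library and the differing barcode lists of the libraries cannot be told apart. Among 8194 genes 1157 (14.1%) were at least 2-fold higher and 541 (6.6%) lower in cycling FAPs of day 3, with a median log2 ratio of 0.17. Most mitosis genes were near 0 at day 1. *Ccnb1* was at 0.643 CPM, *Hmmr* at 0.459 CPM and *Cenpf* at 0.551 CPM, although *Tubb4b* was at 249.6 CPM, and 40 of 44 genes were 2-fold higher in cycling FAPs of day 3 (summed log2 ratio 2.46). Replication genes were not. *Mcm2* was at 47.9 CPM in day 1 FAPs, above the 38.6 CPM of cycling FAPs and the 9.29 CPM of non-cycling FAPs of day 3, and *Mcm3* stood in the same order, at 67.7, 55.2 and 11.7 CPM. *Mcm5* was at 54.9 CPM and *Pcna* at 132 CPM at day 1, against 63.3 and 166 CPM in cycling FAPs. Only 16 of 38 replication genes were 2-fold higher in cycling FAPs of day 3 and 1 was lower (summed log2 ratio 0.85), and those that were higher included *Pclaf* (4.99), *Ccne2* (3.04) and *Rrm2* (3.03).

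**Figure D4:**
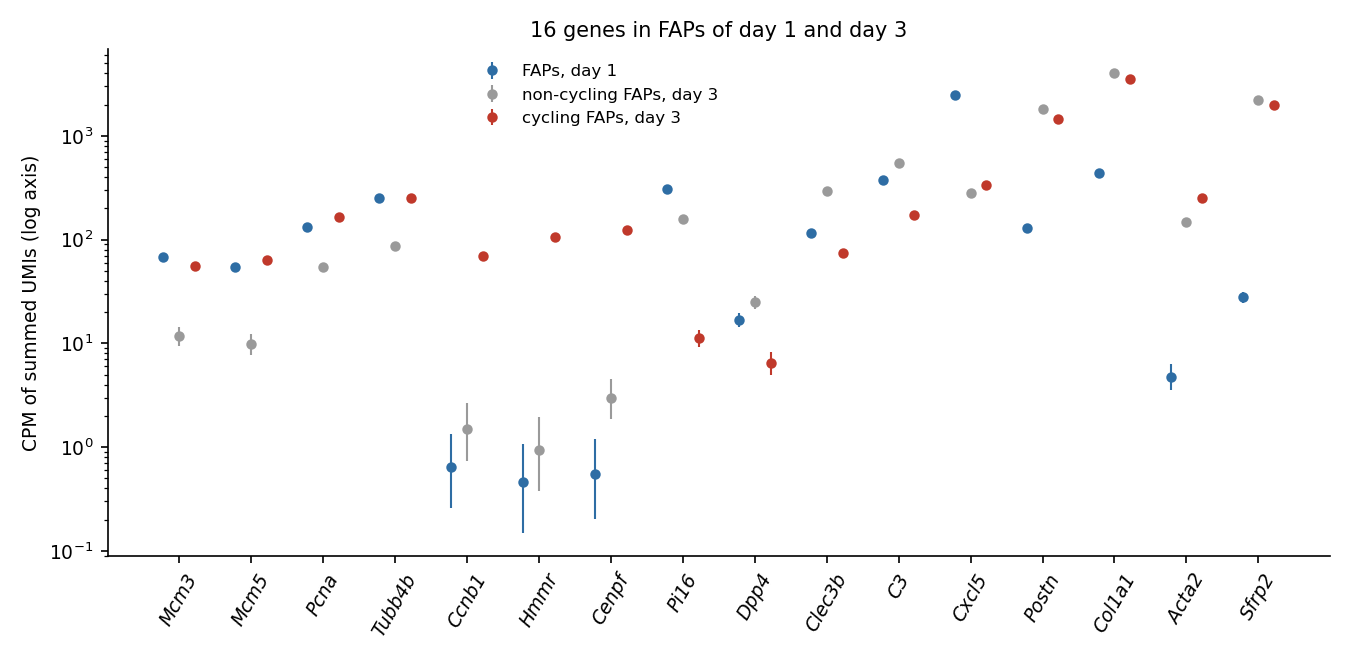
CPM of summed UMIs, on a log axis, of 16 genes in FAPs of day 1 (blue), non-cycling FAPs of day 3 (grey) and cycling FAPs of day 3 (red), with exact 95% Poisson intervals. *Mcm3* at day 1 lay above both day 3 groups, whereas *Ccnb1*, *Hmmr* and *Cenpf* at day 1 lay below 1 CPM.

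Collagen genes differed more between the days than between cycling and non-cycling cells. Day 1 FAPs lay nearer the collagen limit that chose all FAPs, and its part in these ratios was not tested. Of 13 collagen genes, 11 were at least 2-fold higher in cycling FAPs of day 3 than in day 1 FAPs, beside 14.1% of all genes (summed log2 ratio 1.55), with *Col5a1* at a log2 ratio of 3.17. *Postn* (log2 ratio 3.47), *Aspn*, asporin (4.99), *Sfrp2* (6.15) and *Acta2* (5.72) were higher as well, and for these genes non-cycling FAPs of day 3 were within 2-fold of cycling FAPs. Of 19 chemokines and inflammatory mediators, 10 were at least 2-fold lower, beside 6.6% of all genes, and 2 higher (summed log2 ratio -1.14). The neutrophil chemokine *Cxcl5* was at 333 CPM in cycling FAPs and 2473 CPM at day 1, and the monocyte chemokine *Ccl2* at 1368 and 2863 CPM, while *Cxcl10*, an interferon-induced chemokine, was higher at day 3 (log2 ratio 3.35). Translation genes were 2-fold lower in 13 of 18 (summed log2 ratio -0.98). Complement genes had a summed log2 ratio of 0.02, with 3136 CPM at day 1, but its members went both ways. Of 14 genes, 3 were at least 2-fold higher, led by *Gas6* (1.83), and 4 lower, led by *Igfbp3* (-3.74), and the median log2 ratio was -0.49. *Pi16* was at 310 CPM at day 1, 158 CPM in non-cycling and 11.2 CPM in cycling FAPs of day 3.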

How the data were processed

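Single cells of injured quadriceps had been measured by 10x 3′ RNA sequencing. The values deposited by the authors are unnormalised counts of UMIs for each barcode and gene, made, per the submitters' processing notes, with Cell Ranger 5.0.0 on mm10, although the file headers name an earlier version. The day 3 library held 102565783 UMIs and the day 1 library 74852240, over 32285 genes. Barcode lists differed between the days (6794880 and 737280 listed) although the labels name 1 chemistry, no barcode was shared among called cells (0), and 0 columns of other samples were left out. Other samples of the study, held in a separate series, were not analysed here.

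Cells were chosen by the limits given in the report, in Python 3.11.15 with numpy 2.4.6, pandas 2.3.3, scipy 1.17.1 and scanpy 1.11.5. The mitochondrial limit left out 1804 day 3 barcodes. Doublets were kept: Scrublet's own threshold marked 0 day 3 cells, so that removing the highest scores served as an alternative, as did TMM scaling in edgeR 4.0.16 (R 4.3.3). Counts were summed per group and given as CPM with exact Poisson intervals. Log2 ratios had 0.5 added to each count, with exact binomial intervals. All intervals are 95% and cover counting error only. With 1 library per day no test was run. Cycling FAPs summed to 9868383 UMIs, non-cycling FAPs to 7430949.

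Named genes were the members of the lists, the 15 highest and 15 lowest ratios, the 10 highest outside the cell-cycle lists, and the 5 highest and 5 lowest differences from macrophages. Members and lists were chosen with earlier results of these data known. A macrophage had *Lyz2* at 0.5% of UMIs or more, at least 2 UMIs of *Adgre1*, *Cd68* and *Csf1r*, a collagen share under 0.3% and no *Pdgfra* or myogenic UMI. Scripts were tested on simulated data. Figures were drawn with matplotlib 3.10.9.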

Additional observations from a re-analysis of the deposited data

Results flagged for a closer look

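FAPs above the mitochondrial limit were outside the comparisons. Of 1804 day 3 cells above 7.5% mitochondrial UMIs, 121 met the other limits for FAPs, and 36 of those carried at least 2 UMIs of *Top2a* and *Mki67* (29.8%, exact 95% interval 21.8 to 38.7). Their median mitochondrial share was 10.2%. Against non-cycling FAPs above the same limit, their mitosis genes had a summed log2 ratio of 3.03 and their complement genes one of -1.13.

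The 7 genes named here stood at least 2-fold apart between cycling and non-cycling cells in opposite directions in FAPs and in macrophages, and the difference between the cell types was not tested. *Igfbp4*, a binding protein of insulin-like growth factors, had a log2 ratio of -1.21 in FAPs and 1.19 in macrophages. The other 6 are genes of monocytes and macrophages. *Ccr2*, the receptor of monocyte chemokines, had a log2 ratio of 1.30 in FAPs and -1.30 in macrophages, and *Cd52* 1.32 and -1.16. *Chil3*, a chitinase-like protein, stood at 1.09 and -1.82, *Clec4a1* at 1.17 and -1.34, *Clec4a3* at 1.205 and -1.36, and *Ms4a4c* at 1.00 and -1.93. Levels of these 6 in cycling FAPs were below those of cycling macrophages, as for *Ccr2* at 34.9 against 134 CPM and *Cd52* at 150 against 654 CPM. The part of macrophage RNA among FAPs in these ratios was not tested.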

How the results depend on the processing

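The share of cycling FAPs (38.3%) was 51.6% with a limit of 1 UMI of *Top2a* and *Mki67*, 32.5% with 3, 32.2% with *Lyz2* under 0.1%, 32.1% when the highest Scrublet scores were removed as well, and 22.7% when cells were thinned to 3000 UMIs before a limit of 1 UMI. The 389 genes 2-fold higher became 212 with thinning before the limit, 37 with thinning after grouping, 719 with a minimum of 50 UMIs, 2736 with 1 UMI and 181 within 20000 to 40000 UMIs, where fewer cells bring fewer genes to the minimum. The 139 genes lower became 87 with the limit of 1 UMI, 58, 45, 316, 2364 and 44 in turn. Alternatives of the depth band, of *Lyz2* with Scrublet, and those of the macrophage and day 1 sums were chosen after seeing the data.

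Summed log2 ratios kept their direction. With limits of 1 and 3 UMIs they were 1.82 and 2.11 for replication, 2.72 and 3.11 for mitosis, -0.33 and -0.41 for provisional matrix, -0.77 and -0.95 for complement, 2.35 and 3.05 for mitosis in macrophages, and -1.08 and -1.16 for inflammatory genes against day 1. In the order replication, mitosis, provisional matrix, complement, they were 2.23, 3.29, -0.36 and -0.97 with *Lyz2* under 0.1%, 2.23, 3.30, -0.36 and -0.96 with Scrublet as well, 1.24, 2.20, -0.28 and -0.60 thinned before the limit, 2.09, 3.06, -0.35 and -0.93 thinned after grouping, 1.97, 2.93, -0.44 and -0.92 centred on the median, 2.33, 3.44, -0.30 and -1.01 with the ambient profile subtracted, and 2.19, 2.90, -0.33 and -0.58 in the depth band. Provisional matrix was -0.37 with a mitochondrial limit of 15%, -0.38 with Scrublet alone and -0.37 both as mean per-cell CPM and without cell-cycle genes in the total. With a collagen share of 1% provisional matrix was -0.34, complement -0.84 and inflammatory genes -0.98, and complement was -0.95 as mean CPM. Mitosis in macrophages was 2.65 and inflammatory genes against day 1 -1.12 thinned before the limit, and the latter -1.10 with low *Lyz2* and -1.05 with Scrublet. The cause of each shift was not tested. *Ms4a4c* turned to -0.16 with thinning before the limit, and *Spp1* to -0.077 with low *Lyz2* and -0.074 with Scrublet as well. Over 422 results, those above among them, 4970 of 6752 values stayed within the counting interval, 1779 moved outside it and 3 changed direction. No paired analysis was possible because each day had 1 library.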

Other observations

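Of the 5 genes whose cycling over non-cycling ratio was most above that of macrophages, 4 are expressed by monocytes and the other was *Pbk*. *Ly6c2*, a surface protein of inflammatory monocytes with a near-identical neighbour, had a log2 ratio of 0.87 in FAPs and -2.81 in macrophages. The chemokine *Ccl12* had a log2 ratio of 3.63 in FAPs and 0.27 in macrophages, but 1 cell held 31.7% of its UMIs in cycling FAPs, and the ratio was 0.93 with *Lyz2* under 0.1%. At the other end, *Slc43a3*, a purine transporter, was at 72.0 CPM in cycling and 70.8 CPM in non-cycling FAPs, whereas its log2 ratio in macrophages was 3.10.

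*Notch3*, a receptor best known in mural cells, was at 26.9 CPM in cycling FAPs, 14.5 CPM in non-cycling FAPs and 0.735 CPM in day 1 FAPs. It was found in 108 of 268 cycling FAPs. Other mural genes were sparse there, with 56 UMIs of *Rgs5* and 5 of *Myh11* over all 268 cells.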
